A study of Bos taurus with 30 samples.

Results

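TEK, ANGPT2, ENG, PECAM1 and CLDN5 are 5 genes of vascular endothelium, and every probe set annotated to them was followed through bovine skin before and after tick infestation. They are 5 of the 9155 genes that have a probe set with 1 gene symbol on the array. They are read by 6 probe sets, all of which passed the filter on low values, and PECAM1 is the gene with more than 1. The cattle were the F2 generation of Gyr, a Bos indicus breed, crossed with Holstein, a Bos taurus breed. Tick-resistant cattle gave 5 arrays at 0 h, taken before infestation, 6 at 24 h and 5 at 48 h after it. Tick-susceptible cattle gave 3, 6 and 5 arrays at these times. The 30 arrays came from 6 resistant and 7 susceptible animals, so most animals contributed several arrays. The biopsies were from the sites where ticks feed. The labels do not name a group sampled over time without ticks, so time and infestation cannot be told apart within a phenotype.

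Endothelial cells line blood vessels and control what leaves them. TEK is the angiopoietin receptor of these cells, whose signalling keeps vessels quiescent, and ANGPT2 is a ligand that endothelial cells store and release on activation and that often opposes this signal. ENG, endoglin, is a co-receptor for bone morphogenetic proteins and TGF-beta that is raised on proliferating endothelium. PECAM1 and CLDN5 act at the contacts between endothelial cells, PECAM1 as an adhesion molecule that leukocytes also use when they cross the vessel wall and CLDN5 as the main claudin of endothelial tight junctions. PECAM1 and ENG are not exclusive to endothelium, since platelets and some leukocytes carry PECAM1 and activated macrophages carry ENG. Ticks feed from a pool of blood opened in the host's dermis, so skin vessels and the cells that leave them lie at the attachment site.

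Values are log2 signal as the authors deposited it, and array medians lay between 7.17 and 7.40. The NCBI gene IDs are 280939 for TEK, 282141 for ANGPT2, 615844 for ENG, 282303 for PECAM1 and 617453 for CLDN5. PECAM1 is represented by the probe set with the higher mean (S2_at), and the remaining one (S1_at) is called its other probe set. ANGPT2 lay at or above its array's median in 19 of 30 arrays and ENG in 29, and the other probe sets did so in all 30, so ANGPT2 was read nearest to the dim end. The labelled tissue was borne out by its own markers, as the keratin KRT5 lay between 12.15 and 14.82 and the collagen COL3A1 between 12.78 and 15.52. Among other endothelial markers CDH5, VE-cadherin, lay between 8.83 and 10.52, while VWF (0.48 to 5.97) and KDR (0.56 to 5.13) were too dim on this array to pass the filter.

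A pair of technical points bear on what follows. On the first principal component the 48 h array of resistant animal 01 scored 65.6, against 38.3 for the next highest array. The resistant 0 h arrays titled animal 03, 04 and 05 correlated best with the later arrays of animals 04, 05 and 06 over the probe sets that differ most between animals (r = 0.946, 0.917 and 0.935), and their correlations with their own numbers were -0.493, 0.462 and -0.553. The other 5 arrays at 0 h matched their own number best. Comparisons of groups do not use the animal numbers. Mean changes within resistant animals from 0 h to 48 h are given with the numbers as titled and with these 3 moved.

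No member passed the test in any comparison in the fit of group means: limma called 0 of 5 genes at an adjusted p under 0.05 in each of 12, and at most 3 of 5 in any one had an unadjusted p under 0.05. Over all 13809 probe sets it called 2 in resistant against susceptible skin at 48 h (0.0145%) and 0% in each other comparison. The genes had a similar layout of group means. Counts among the 5 are descriptions here, as the genes were chosen with earlier results of these data known and are correlated with each other. At 0 h and at 24 h all 5 were lower on average in resistant skin, where 52% and 50.4% of all probe sets were. That of CLDN5 at 0 h changed sign without susceptible animal 11, and without the 3 doubtful resistant arrays. In resistant skin all 5 were higher on average at 48 h than at 0 h or 24 h, where 47.8% and 46.1% of probe sets were. In susceptible skin the differences between times lay between -0.20 and 0.41 in this fit, except for ENG. The values in these biopsies are averages over many cells, so fewer endothelial cells and less RNA per cell cannot be told apart.

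**Figure D1:**
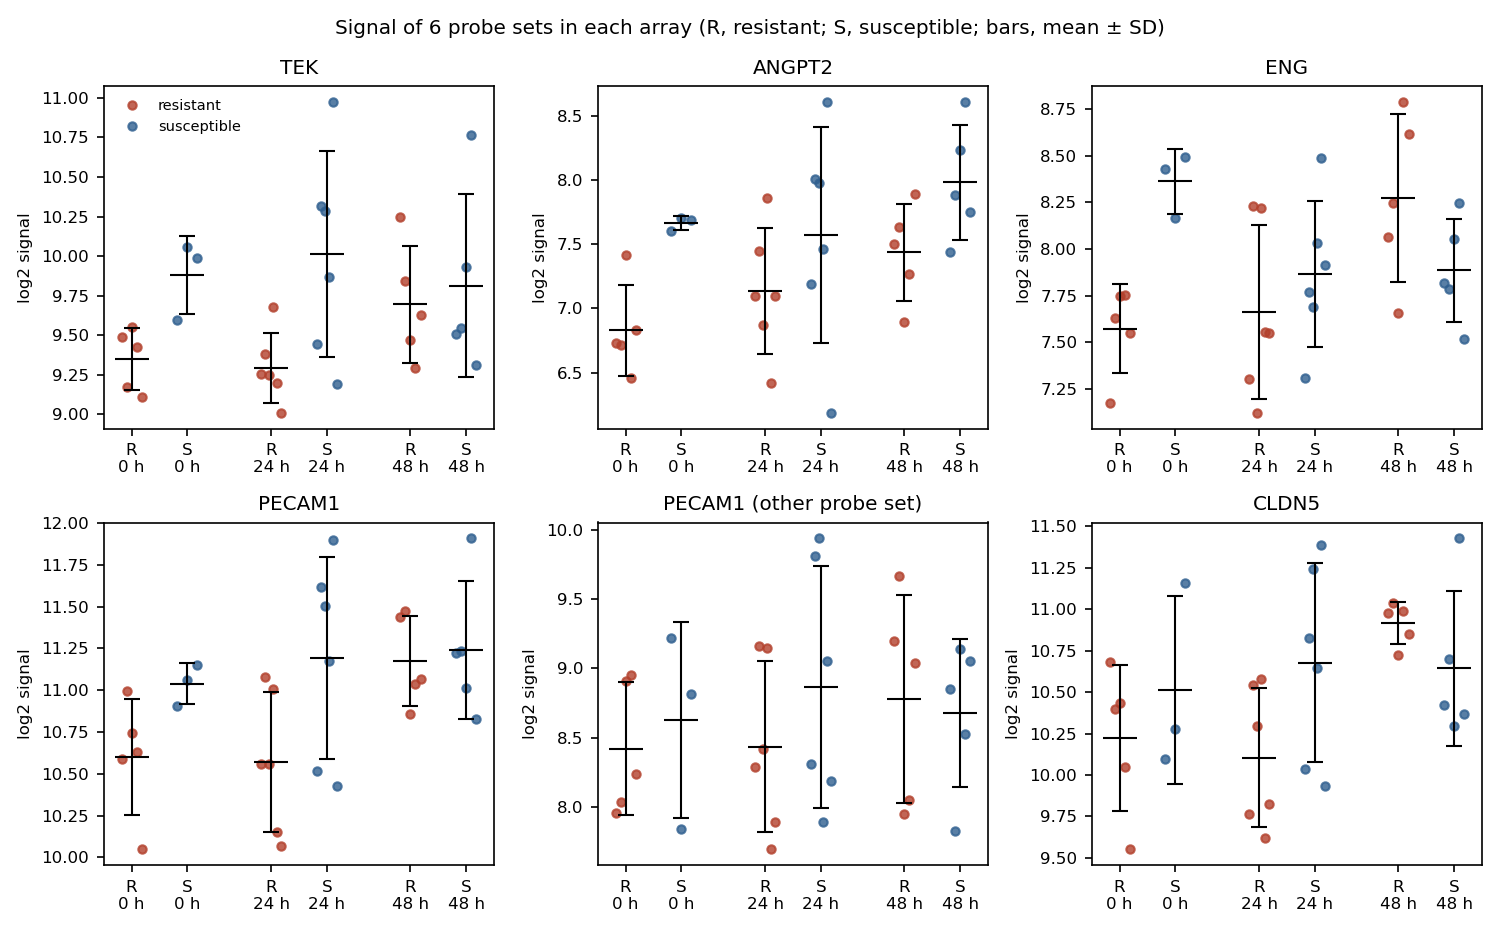
Log2 signal of TEK, ANGPT2, ENG, PECAM1 and CLDN5 (y axis) in each array, by phenotype and time (x axis); points are arrays and bars are group means ± SD. Before infestation the resistant arrays lay below all 3 susceptible arrays for TEK, ANGPT2 and ENG, and at 48 h the 5 resistant CLDN5 values lay close together, between 10.72 and 11.04.

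TEK, the receptor, had its resistant values at 0 h at 9.49, 9.17, 9.55, 9.43 and 9.11, and its susceptible values at 9.60, 10.05 and 9.99. The groups did not overlap, with the highest resistant and the lowest susceptible array close to each other. The log2 difference was -0.53 ± 0.30 (SE; 95% interval -1.15 to 0.09; limma adjusted p = 1.0). At 24 h TEK lay between 9.01 and 9.68 with a median of 9.25 in 6 resistant arrays, and between 9.19 and 10.98 with a median of 10.08 in 6 susceptible arrays. Susceptible skin held both wide spread and the highest TEK level of the series, in animal 12, and the ranges overlapped. The difference of -0.72 ± 0.24 (SE) meant 1.65-fold more signal in susceptible skin, and it did not pass (adjusted p = 0.978). Without the array of animal 12 it was -0.53. At 48 h TEK was 10.25, 9.84, 9.47, 9.29 and 9.63 in resistant arrays and 9.51, 9.55, 9.93, 10.77 and 9.31 in susceptible arrays, which overlapped throughout. The difference at this time was -0.12 ± 0.26 (SE, adjusted p = 0.922) and turned to 0.12 without susceptible animal 11.

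ANGPT2, the ligand, was 6.73, 6.71, 7.41, 6.46 and 6.83 in resistant arrays at 0 h and 7.60, 7.71 and 7.69 in susceptible arrays. All resistant arrays lay below all susceptible ones, and the 3 susceptible values were nearly equal. The values of resistant animals 01, 02, 04 and 05 lay below their arrays' medians of 7.17, 7.23, 7.35 and 7.26. All susceptible values lay above theirs, so the resistant side of this difference was read mostly from dim signal. The log2 difference of -0.84 ± 0.37 (SE), 1.79-fold more signal in susceptible skin, did not pass (adjusted p = 1.0). At 24 h ANGPT2 lay between 6.42 and 7.86 with a median of 7.10 in resistant skin and between 6.18 and 8.61 with a median of 7.72 in susceptible skin. The lowest and the highest level of ANGPT2 in the series' 24 h arrays were thus both in susceptible animals, 13 and 12, and the difference was -0.44 ± 0.29 (SE, adjusted p = 0.978), or -0.23 without animal 12 and -0.72 without animal 13. At 48 h the resistant arrays read 7.50, 7.63, 6.90, 7.26 and 7.89 and the susceptible arrays 7.44, 7.89, 8.23, 8.61 and 7.75. The difference at 48 h was -0.55 ± 0.32 (SE), the groups overlapped and the adjusted p was 0.567.

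ENG, the co-receptor, was at 0 h 7.17, 7.63, 7.75, 7.76 and 7.55 in resistant arrays and 8.43, 8.17 and 8.49 in susceptible arrays, and the groups did not overlap. The log2 difference was -0.79 ± 0.27 (SE; 95% interval -1.34 to -0.25; adjusted p = 1.0). At 24 h ENG lay between 7.12 and 8.23 with a median of 7.55 in resistant skin, against 7.31 to 8.49 with a median of 7.84 in susceptible skin, and the difference was -0.20 ± 0.21 (SE). At 48 h the order of the means was the opposite one, with resistant arrays at 8.06, 8.25, 7.66, 8.79 and 8.62 and susceptible arrays at 7.81, 7.79, 8.06, 8.25 and 7.52. Resistant animals 05 and 06 lay above every susceptible array, and the difference was 0.39 ± 0.23 (SE, adjusted p = 0.567).

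PECAM1, the adhesion molecule, averaged 10.60 ± 0.35 in resistant and 11.04 ± 0.12 in susceptible skin at 0 h (SD, n = 5 and 3). Its resistant values of 10.59, 10.996, 10.74, 10.63 and 10.05 reached into the susceptible ones of 10.91, 11.06 and 11.15 through animal 02, and the log2 difference was -0.44 ± 0.29 (SE, adjusted p = 1.0). At 24 h it lay between 10.07 and 11.08 with a median of 10.56 in resistant skin and between 10.43 and 11.90 with a median of 11.34 in susceptible skin. The difference of -0.62 ± 0.23 (SE) was 1.54-fold more signal in susceptible skin, with 4 susceptible arrays above every resistant one and an adjusted p of 0.978. At 48 h PECAM1 averaged 11.18 ± 0.27 in resistant and 11.24 ± 0.41 in susceptible skin (SD, n = 5 each), a difference of -0.07 ± 0.25 (SE) that turned to 0.10 without susceptible animal 11. The other probe set of PECAM1 correlated with this one at r = 0.53 over the 30 arrays and had a wider spread within groups. Its resistant minus susceptible differences were -0.21 ± 0.46, -0.43 ± 0.37 and 0.10 ± 0.40 (SE) at 0 h, 24 h and 48 h. The sign was that of the main probe set at 0 h and 24 h. At 48 h it was the opposite one, where both differences were smaller than their SE. In resistant skin its means were 8.42 ± 0.48, 8.44 ± 0.62 and 8.78 ± 0.75 at 0 h, 24 h and 48 h (SD, n = 5, 6 and 5). In susceptible skin they were 8.63 ± 0.71, 8.87 ± 0.87 and 8.68 ± 0.53 (SD, n = 3, 6 and 5).

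CLDN5, the claudin, was the member with the smallest difference at 0 h. It was 10.68, 10.40, 10.43, 10.05 and 9.55 in resistant arrays and 10.10, 10.28 and 11.16 in susceptible arrays, which overlapped. The log2 difference of -0.29 ± 0.32 (SE) rested on susceptible animal 11, without which it was 0.04. At 24 h CLDN5 lay between 9.62 and 10.58 with a median of 10.06 in resistant skin and between 9.94 and 11.39 with a median of 10.74 in susceptible skin, a difference of -0.58 ± 0.25 (SE, adjusted p = 0.978). As for PECAM1, 4 susceptible arrays lay above every resistant array. At 48 h the resistant values of 10.98, 11.04, 10.72, 10.99 and 10.85 lay above 4 of the 5 susceptible values, which were 10.42, 10.70, 10.29, 11.43 and 10.37. The difference was 0.27 ± 0.27 (SE, adjusted p = 0.771).

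Read together, groups without overlap at 0 h were found for 3 of the 5 genes, TEK, ANGPT2 and ENG, all lower in resistant skin, where 3.16% of all probe sets had such a layout in that direction. Centring each array on its median left 2 of the 3, where 1.66% of probe sets had it. At 24 h and at 48 h the groups of all 5 genes overlapped, where 0.0869% and 0.645% of probe sets were lower without overlap. Unadjusted p-values under 0.05 were found for ANGPT2 and ENG at 0 h and for TEK, PECAM1 and CLDN5 at 24 h, where 3.14% and 2.33% of probe sets were lower at that level.

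**Figure D2:**
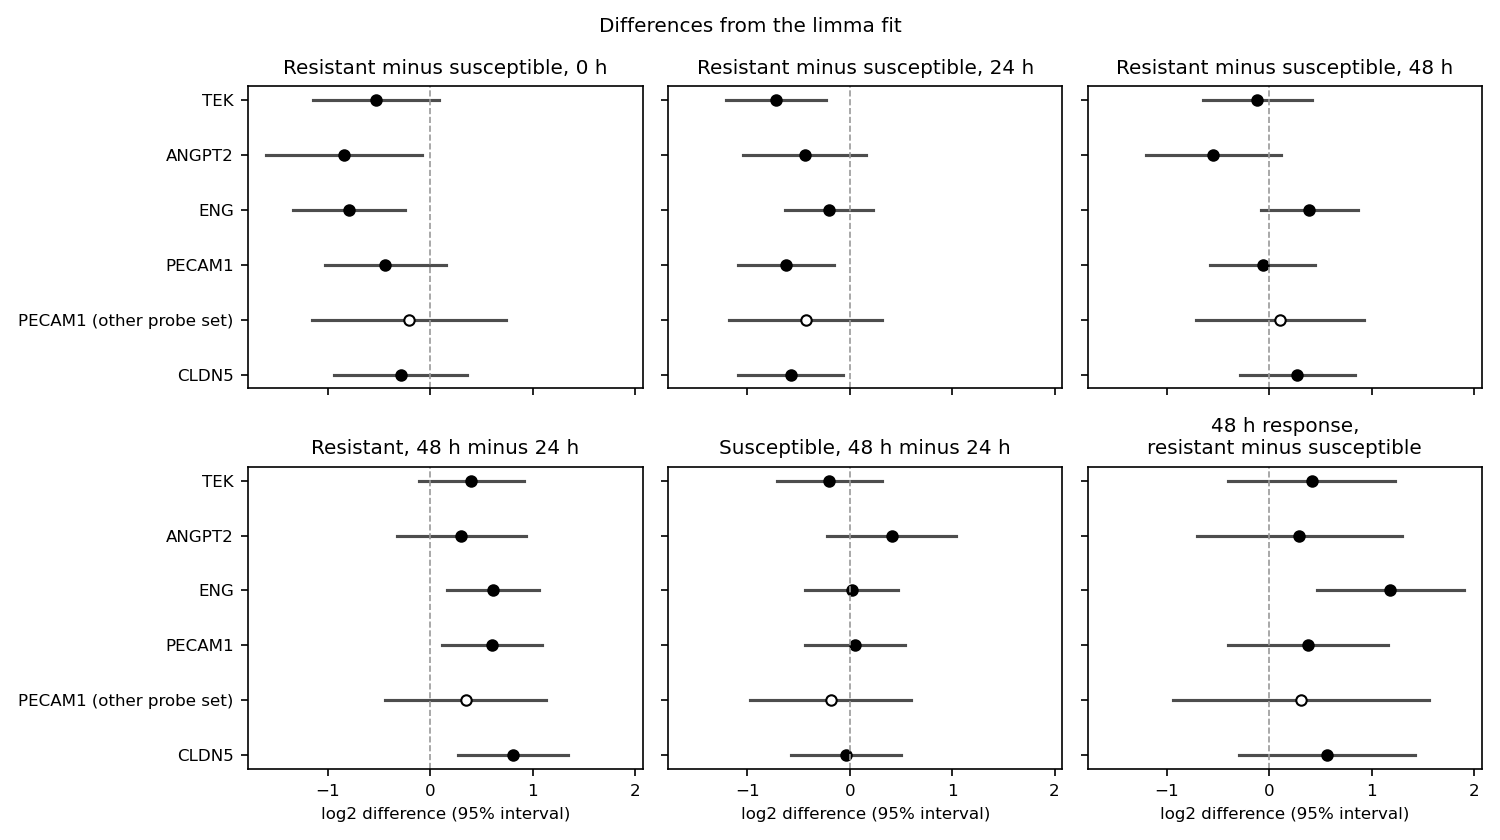
Log2 differences of the 5 genes (points) with 95% intervals (lines) from the limma fit, for resistant minus susceptible skin at each time, for 48 h minus 24 h in each phenotype and for the difference between phenotypes in the 48 h response; open points are the other PECAM1 probe set. The points for resistant minus susceptible lie below 0 for all 5 genes at 0 h and 24 h, those for 48 h minus 24 h in resistant skin lie above 0 for all 5, and the largest 48 h response difference is that of ENG at 1.18.

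Within resistant skin the log2 differences between 24 h and 0 h ran from -0.12 to 0.30. The highest was that of ANGPT2, as large as its difference between 48 h and 24 h. At 48 h all 5 means were higher than at 0 h. ENG was 0.70 ± 0.23 (SE), CLDN5 0.69 ± 0.27, ANGPT2 0.61 ± 0.32, PECAM1 0.57 ± 0.25 and TEK 0.35 ± 0.26 log2 units higher, with adjusted p from 0.304 to 0.632. Unadjusted p-values under 0.05 were found for ENG, PECAM1 and CLDN5 against 0 h and again against 24 h, where 4.95% and 4.77% of probe sets were higher at that level. CLDN5 alone of the 5 had no overlap between 48 h and 0 h, where 1.02% of probe sets were higher without overlap. Without the 3 doubtful 0 h arrays 3 of the 5 had none, where 5.68% of probe sets had none in that direction. ENG is the member whose call depended on how animals were matched: in a fit that has animals as fixed effects and the 3 doubtful 0 h numbers moved, its difference was 0.91 with an adjusted p of 0.0310, and with the numbers as titled it was 0.76 with an adjusted p of 0.0851. These fits called 108 (0.782%) and 84 (0.608%) of all probe sets, against 0 in the fit of group means.

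Against 24 h, the resistant 48 h means were higher by 0.81 ± 0.26 for CLDN5, 0.61 ± 0.22 for ENG, 0.60 ± 0.24 for PECAM1, 0.40 ± 0.25 for TEK and 0.30 ± 0.31 for ANGPT2 (SE, adjusted p from 0.378 to 0.754). Without the 48 h array of animal 01 that of TEK was 0.26, and 0.21 against 0 h, and without the 24 h array of animal 05 that of ANGPT2 was 0.16. The CLDN5 difference corresponded to 1.76-fold, and its 5 values at 48 h lay above all 6 at 24 h, where 0.492% of probe sets were higher without overlap. Animals measured at both times give the same comparison without the spread between animals. CLDN5 was higher at 48 h by 1.21, 0.50, 0.43, 1.37 and 1.03 in resistant animals 01, 02, 03, 05 and 06. All 5 genes were higher in 5 of 5 resistant animals, where 9.06% of all probe sets were. Some of these differences were close to 0, with ENG higher by 0.01 in animal 02 and ANGPT2 by 0.02 in animal 03, and after median centring 3 of the 5 genes were higher in every animal, where 8.31% of probe sets were. The other probe set of PECAM1 was higher in 4 of 5.

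Susceptible animals with both arrays, 09, 10, 11 and 13, did not share a direction. The 48 h minus 24 h difference of CLDN5 was -0.13, -0.95, 0.79 and 0.43 in them, and that of PECAM1 was -0.38, -0.49, 0.73 and 0.40. TEK, PECAM1 and CLDN5 were higher at 48 h in 2 of 4 animals each, and ANGPT2 and ENG in 3 of 4. Animal 11 was higher for all 5 genes and held the highest level of each at 48 h among susceptible arrays. The test of the difference between phenotypes in this change, a comparison added after the values were seen, gave 0.85 ± 0.37 for CLDN5, 0.60 ± 0.35 for TEK, 0.59 ± 0.31 for ENG, 0.55 ± 0.34 for PECAM1 and -0.11 ± 0.43 for ANGPT2 (SE), with adjusted p from 0.921 to 0.986. With the mean level of epidermal genes as a term in the fit it was 0.52 for CLDN5, 0.18 for TEK, 0.53 for ENG, 0.16 for PECAM1 and -0.42 for ANGPT2, and that of ANGPT2 turned to 0.17 without the 24 h array of animal 13.

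**Figure D3:**
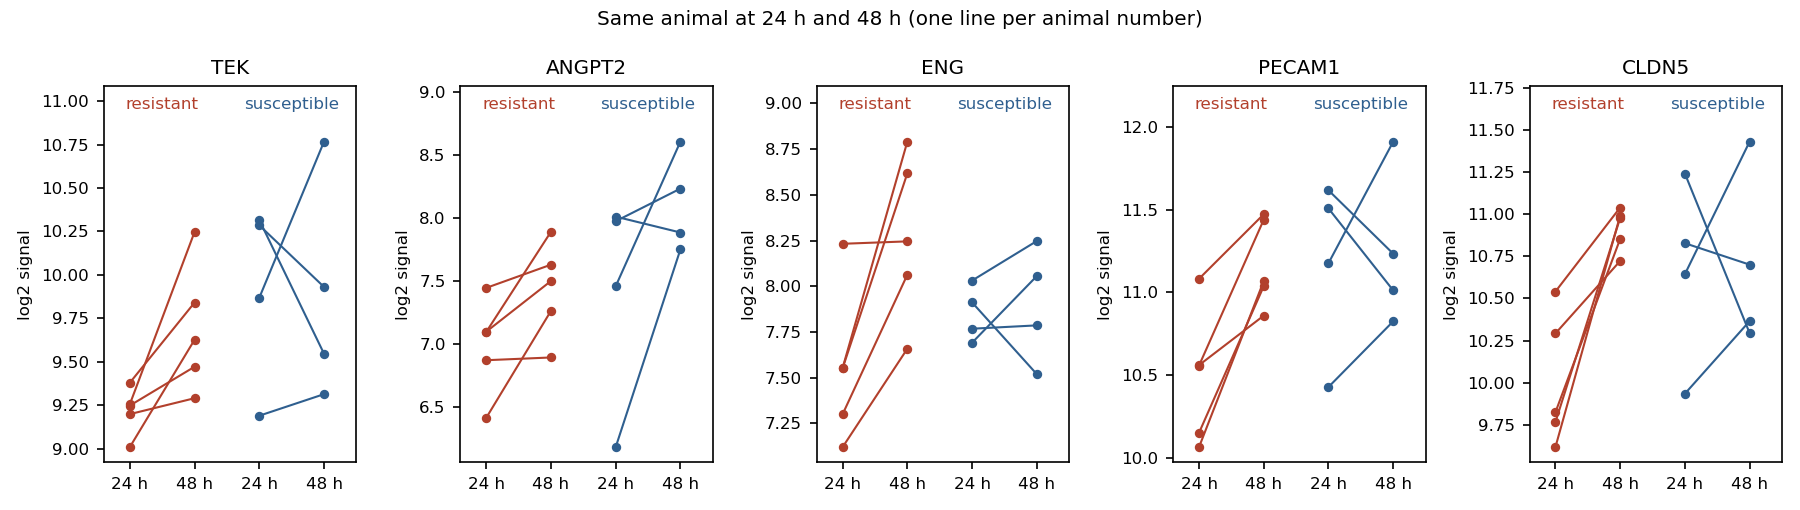
Log2 signal (y axis) of each gene at 24 h and 48 h (x axis) in the animals with both arrays, one line per animal, 5 resistant and 4 susceptible. Every resistant line runs upward for all 5 genes, and the susceptible lines cross.

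In susceptible skin the ENG means were lower after infestation. The difference of ENG at 24 h from 0 h was -0.66, -0.48 and -0.46 in susceptible animals 09, 10 and 11, and that at 48 h was -0.64, -0.11 and -0.25. ENG was thus lower in 3 of 3 animals at both times, where 15.8% and 7.46% of probe sets were lower in every animal. In the same animals ANGPT2 at 48 h differed from 0 h by 0.28, 0.53 and 0.91, and CLDN5 by 0.60, 0.02 and 0.27. Both were thus higher in 3 of 3, where 8.47% of probe sets were. TEK differed by -0.05, -0.12 and 0.78 and PECAM1 by 0.33, -0.05 and 0.76. At 24 h the mean change from 0 h in these animals was 0.28 for TEK, 0.15 for ANGPT2, 0.39 for PECAM1 and 0.39 for CLDN5. Over the groups the ENG differences were -0.50 ± 0.26 and -0.48 ± 0.27 (SE, adjusted p = 1.0 for both). In the resistant animals with both arrays the difference of ENG at 48 h from 0 h was 0.89, 0.62 and 1.24 in animals 01, 02 and 05 and -0.09 in animal 03. With the 3 numbers moved, the mean change in 4 animals was 0.90 for ENG and 0.89 for ANGPT2. It was 0.80 for CLDN5, 0.69 for PECAM1 and 0.45 for TEK, which ran from -0.13 to 0.76. As titled these means were 0.66, 0.40, 0.67, 0.61 and 0.38 in the same order. The lowest single change as titled was -0.52, for ANGPT2. The response at 48 h, 48 h minus 0 h, differed between the phenotypes by 1.18 ± 0.35 (SE; 95% interval 0.46 to 1.90) for ENG. It ranked 7 of 13809 by its p in that comparison and did not pass (adjusted p = 1.0), and it stayed between 1.05 and 1.34 with any one array left out. For TEK, ANGPT2, PECAM1 and CLDN5 the same difference was 0.41, 0.29, 0.37 and 0.56. With any one array left out it lay between 0.27 and 0.65 for TEK, 0.16 and 0.45 for ANGPT2 and 0.24 and 0.54 for PECAM1, and for CLDN5 between 0.24, without the 0 h array of susceptible animal 11, and 0.77. With animals as fixed effects the ANGPT2 difference turned to -0.11 with the numbers as titled and was 0.13 with the 3 moved.

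Ordered by group mean, all 5 genes had resistant skin at 0 h and 24 h at the bottom, and TEK, ANGPT2 and PECAM1 were highest in a susceptible group. ENG was highest in susceptible skin at 0 h and CLDN5 in resistant skin at 48 h. Of the 5 steps between neighbours in this order none was larger than the larger SD of the pair for TEK, ANGPT2, ENG or CLDN5, and 1 was for PECAM1, the step of 0.44 between resistant and susceptible skin at 0 h. The distance from the top to the bottom group was 1.16 for ANGPT2, 0.81 for CLDN5, 0.79 for ENG, 0.72 for TEK and 0.67 for PECAM1 in log2 units. The 6 groups accounted for 33.1% to 40.7% of the variance of the 5 genes, against a median of 17.1% over all kept probe sets, and for 7.62% in the other PECAM1 probe set. Adding a term for each animal, numbered as titled, took up 58.6% (CLDN5) to 76.7% (PECAM1) of the variance left within groups. The median over all kept probe sets was 53.5%, and the other PECAM1 probe set had 31.5%. These shares are not corrected for the number of terms fitted, so they do not measure the variance between animals.

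TEK, ANGPT2, PECAM1 and CLDN5 varied together from array to array, and ENG followed them less closely. PECAM1 correlated with CLDN5 at r = 0.88, with TEK at 0.86 and with ANGPT2 at 0.79 over the 30 arrays, which share animals, and TEK with ANGPT2 at 0.79. The r of ENG with the other 4 was from 0.45 to 0.56. The median correlation of the 5 genes with all other genes lay between -0.05 and -0.02, and the 95th percentile between 0.40 and 0.59. Ranked by r with TEK, ANGPT2, PECAM1 and CLDN5, ENG was 681, 279, 458 and 404 of 7015 genes. Ranked by r with ENG, these 4 were 189, 74, 42 and 57. Among 7015 other genes, those most like TEK were MEOX2 (r = 0.87), PECAM1 and CDH5 (0.85), and those most like ANGPT2 were MEOX2 (0.81), MYOF (0.80) and PECAM1. PECAM1 was most like LMO2 (0.90), CD93 (0.89) and CLDN5, and CLDN5 was most like PECAM1, LMO2 (0.84) and JAM2 (0.81). ENG was most like RAPGEF3 (0.70), B2M (0.67) and NHERF2 (0.67). With the group means removed the correlations with these most alike genes lay between 0.52 and 0.92, and those of ENG with the other 4 members between 0.38 and 0.50. They are descriptions of these arrays, as the genes were ranked by them.

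**Figure D4:**
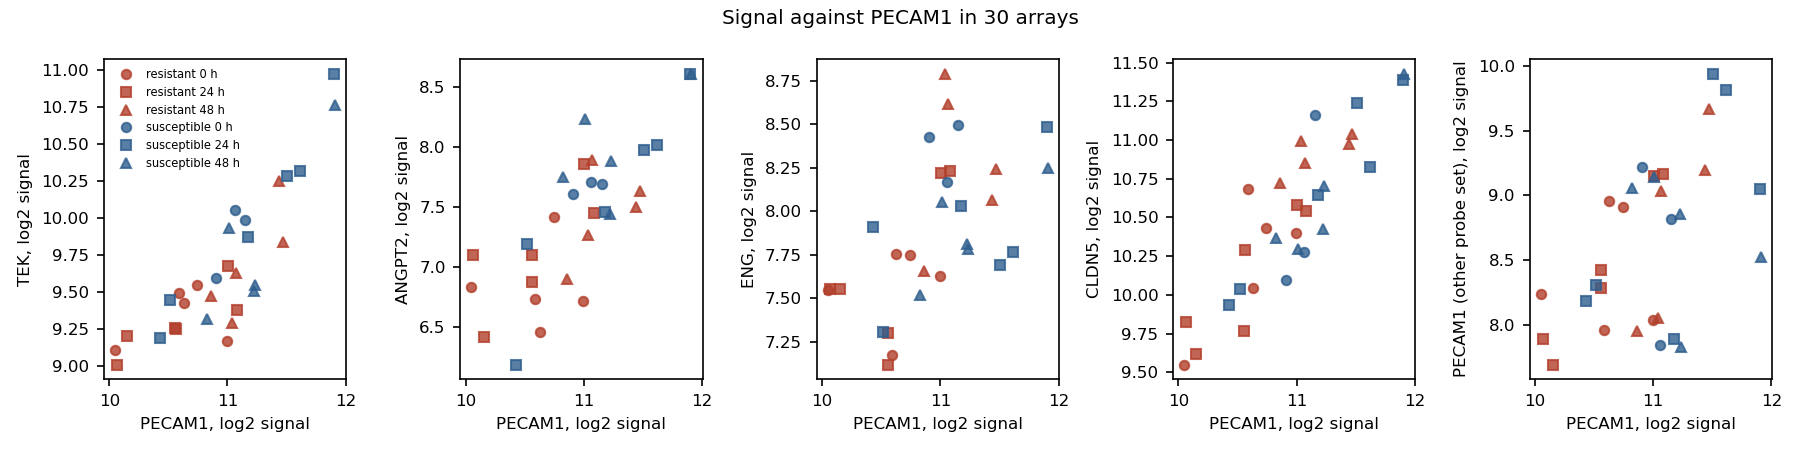
Log2 signal of TEK, ANGPT2, ENG, CLDN5 and the other PECAM1 probe set (y axes) against PECAM1 (x axis) in the 30 arrays, coloured by phenotype and marked by time. TEK (r = 0.86) and CLDN5 (r = 0.88) follow PECAM1 closely, while 2 resistant 48 h arrays, of animals 05 and 06, have the highest ENG at a middling PECAM1.

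Single animals weighed on the levels of all members at once. Susceptible animal 12 at 24 h and susceptible animal 11 at 48 h had the highest value of their group for all 5 genes. Susceptible animal 13 had the lowest value of its group for 4 genes at 24 h and 3 at 48 h. Without animal 12 the differences between resistant and susceptible skin at 24 h were at their smallest for each gene, at -0.53 for TEK, -0.23 for ANGPT2, -0.08 for ENG, -0.48 for PECAM1 and -0.43 for CLDN5.

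A wider list of endothelial identity genes held 26 measured genes, of which 21 are not members. Of these 21, 18 were lower in resistant skin at 0 h (median -0.29), 19 at 24 h (median -0.37) and 13 at 48 h (median -0.13), and 0 were called at any time. The medians over all measured genes were 0.00, 0.01 and -0.02. EMCN, endomucin, a mucin of capillary and venous endothelium, had log2 differences of -0.83 ± 0.35, -0.70 ± 0.27 and -0.58 ± 0.30 (SE) at 0 h, 24 h and 48 h. AQP1, a water channel, was at -0.75 ± 0.32 at 0 h, and PLVAP, of the diaphragms of fenestrated capillaries, at -0.48 ± 0.20 at 24 h. CD34, a sialomucin of endothelium and other dermal cells, was at 0.62 ± 0.28 at 48 h. In resistant skin 19 of the 21 were higher at 48 h than at 24 h (median 0.28) and 17 than at 0 h (median 0.21). Without the 48 h array of resistant animal 01, which stood apart, these were 17 of the 21 against 24 h (median 0.15) and 13 against 0 h (median 0.10). In susceptible skin 14 were higher at 48 h than at 24 h (median 0.05). The smallest adjusted p of any gene in this list was 0.304, that of ENG for 48 h against 0 h in resistant skin.

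**Figure D5:**
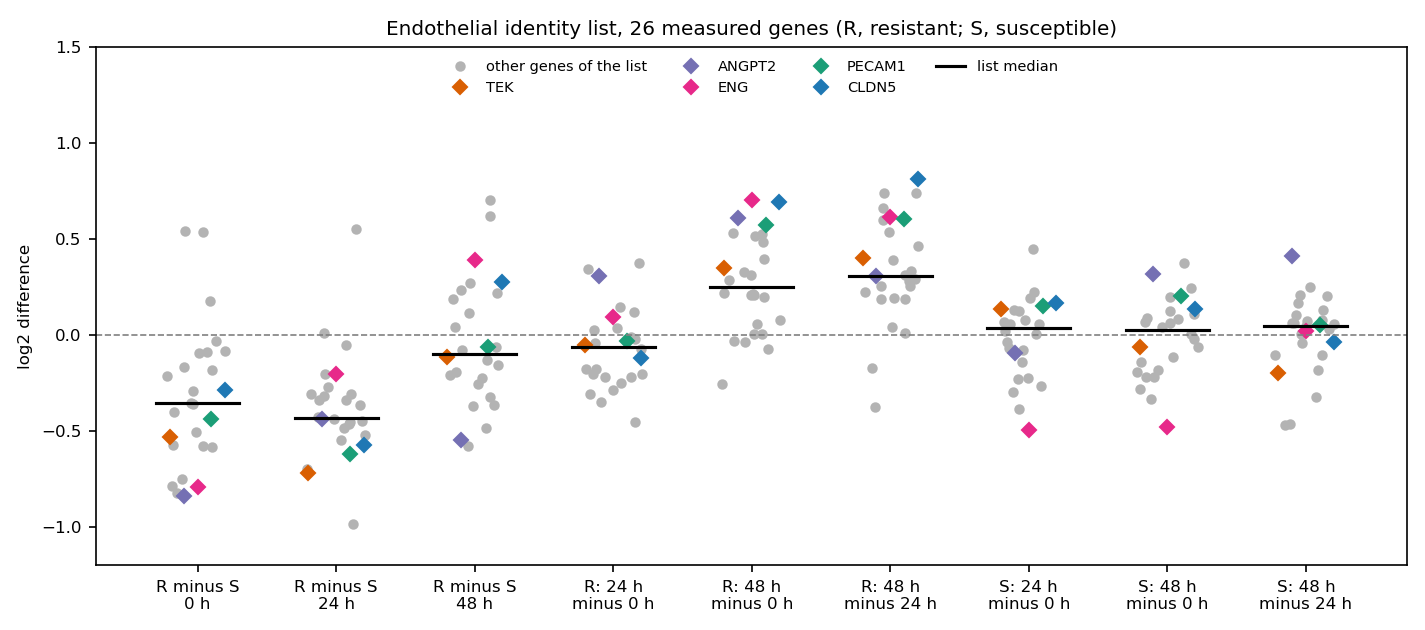
Log2 differences (y axis) of the 26 measured genes of the endothelial identity list by comparison (x axis), with the 5 members marked and the median as a bar. Most points lie below 0 for resistant minus susceptible at 0 h and 24 h and above 0 for 48 h minus 24 h in resistant skin.

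The partners of TEK and ANGPT2 were mixed. Of 5 other measured genes of the angiopoietin pathway 3, 2 and 2 were lower in resistant skin at 0 h, 24 h and 48 h, and 0 were called. PTPRB, a phosphatase that acts on TEK, was 7.36 in resistant and 8.08 in susceptible skin at 24 h, a log2 difference of -0.72 ± 0.24 (SE), and ANGPT4, another ligand, was at -0.48 ± 0.31. DOK2, an adaptor of TEK and of leukocyte receptors, was 7.48 in resistant and 6.48 in susceptible skin at 48 h, at 0.998 ± 0.31 (SE, adjusted p = 0.261). TIE1, the related receptor, was at 0.54 ± 0.74 and 0.70 ± 0.64 at 0 h and 48 h, with a wide error. The related VEGF list had 5, 8 and 4 of 8 measured genes lower at the 3 times, with VEGFC, a ligand for lymphatic growth, at -0.50 ± 0.24 at 24 h, the VEGF receptor FLT1 at -0.35 ± 0.29 at 0 h and -0.31 ± 0.23 at 24 h, VEGFD at 0.96 ± 0.60 and 0.80 ± 0.52 at 0 h and 48 h, and NRP2 at -0.26 ± 0.22 at 48 h. None of the 8 was called.

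ENG acts with the receptor ACVRL1, known as ALK1, and of 7 other measured genes of this pathway 4, 4 and 2 were lower in resistant skin at 0 h, 24 h and 48 h. ACVRL1 had the same signs as ENG at the 3 times, -0.36 ± 0.27, -0.31 ± 0.21 and 0.42 ± 0.23 (SE), and was 9.20 in resistant skin at 48 h against 8.44 at 24 h, a difference of 0.75 ± 0.22. Of the other named members, the shared mediator SMAD4 was at -0.17 ± 0.14 at 0 h, its target ID2 at -0.19 ± 0.14 at 48 h, and the receptor TGFBR2 at -0.22 ± 0.18 at 24 h. In susceptible skin 7 of the 7 were lower at 24 h than at 0 h, with a median of -0.14 against -0.02 over all genes, and 0 were called.

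For the contacts that PECAM1 and CLDN5 belong to, 7, 6 and 8 of 9 other measured junction genes were lower in resistant skin at 0 h, 24 h and 48 h, with medians of -0.10, -0.04 and -0.13. The medians over all probe sets were -0.01, -0.002 and -0.04. JAM2 was at -0.42 ± 0.27 and CDH5 at -0.36 ± 0.32 at 0 h, JAM3 at -0.42 ± 0.21 at 24 h, and at 48 h F11R was at -0.33 ± 0.12 and CTNNA1 at -0.13 ± 0.09 (SE), both of which keratinocytes express as well. Of 10 other genes of leukocyte adhesion 8, 8 and 5 were lower. MCAM was at -0.72 ± 0.35 and SELE, an endothelial selectin, at -0.64 ± 0.36 at 0 h, ACKR1, a chemokine-binding receptor of venules, at -0.78 ± 0.26 at 24 h, and SELE at -0.36 ± 0.31 at 48 h. The Notch list had 3, 4 and 3 of 5 genes lower, with DLL4, a ligand of sprouting tip cells, at -0.49 ± 0.38 and -0.93 ± 0.30 at 0 h and 24 h, RBPJ at 0.36 ± 0.37 and 0.43 ± 0.32 at 0 h and 48 h, HEY1 at 0.62 ± 0.31 at 24 h and JAG1 at -0.27 ± 0.15 at 48 h. None of these genes was called.

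Markers of other cells lay higher or lower on average in the same comparisons. Their part in the values of the 5 genes was not tested. The epidermal term given here is a mean over the same arrays and itself differed between the groups compared, so it is no such test. Of all probe sets limma called 0 at 0 h, at 24 h and between 24 h and 48 h in resistant skin, and 2 between phenotypes at 48 h. At 0 h and 24 h 52% and 50.4% of all probe sets were lower in resistant skin, and 46.1% were higher at 48 h than at 24 h in it. For resistant against susceptible skin at 48 h no such share is given, and the median difference over all probe sets was -0.04. At 0 h all 12 measured pericyte and smooth muscle genes were lower in resistant skin (median -0.44), and the mean of the list lay between 9.01 and 9.48 in resistant arrays and between 9.53 and 10.35 in susceptible arrays. RGS5, a pericyte marker, was at -1.22 ± 0.50 and the muscle filament DES at -1.58 ± 0.73 (SE). All 8 T cell genes were lower too (median -0.58), with list means between 7.06 and 7.83 in resistant and 7.94 and 8.12 in susceptible arrays. At 24 h 6 of 7 basal keratinocyte genes were higher in resistant skin (median 0.45), with list means of 11.38 to 11.80 in resistant and 10.48 to 11.80 in susceptible arrays. At 48 h 11 of 11 monocyte and macrophage genes were higher in resistant skin (median 1.36), with list means of 8.97 to 10.03 in resistant and 6.77 to 8.90 in susceptible arrays.

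Between 24 h and 48 h in resistant skin 11 of 11 monocyte and macrophage genes were higher (median 1.11), with list means of 8.97 to 10.03 at 48 h and 7.69 to 8.74 at 24 h. The pericyte list was higher in 11 of 12 genes (median 0.49), at 8.96 to 10.45 at 48 h against 9.03 to 9.80 at 24 h, and the T cell list in 8 of 8 (median 0.27), at 6.79 to 8.39 at 48 h against 6.58 to 8.05 at 24 h. Basal keratinocyte genes were lower in 6 of 7 (median -0.70), at 9.44 to 11.73 at 48 h against 11.38 to 11.80 at 24 h. Over the arrays the mean of this list had a median of 11.42 and an SD of 0.94 at 48 h, against 11.69 and 0.15 at 24 h. Epidermal differentiation genes were lower in 4 of 4 (median -0.50), at 9.82 to 11.34 at 48 h against 10.30 to 11.90 at 24 h. With the mean of the 2 epidermal lists as a term in the fit, the difference between 48 h and 24 h in resistant skin was 0.09 for TEK, 0.07 for ANGPT2 and 0.31 for PECAM1, while it was 0.57 for CLDN5 and for ENG. The fit with this term was not repeated with single arrays left out. With this term the difference between resistant and susceptible skin at 48 h was -0.44 for TEK, -0.79 for ANGPT2, 0.34 for ENG, -0.37 for PECAM1 and 0.01 for CLDN5, and all 5 stayed negative at 0 h and 24 h. Of 4 platelet markers on the array 3 passed the filter, and ITGA2B, a platelet integrin, did not, lying between 0.86 and 5.39. None of 6 red blood cell genes on the array passed.

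The remaining vessel lists were the lymphatic and the mural one. Of 4 measured lymphatic genes 4 were higher in resistant skin at 48 h (median 0.50), where LYVE1, a hyaluronan receptor of lymphatic vessels and of some macrophages, was 9.0 in resistant and 7.76 in susceptible skin, a difference of 1.24 ± 0.56 (SE, adjusted p = 0.474), and CCL21 was at 0.68 ± 0.45. At 0 h MMRN1 was at -0.58 ± 0.53 and PDPN at 0.35 ± 0.33, and at 24 h MMRN1 was at -0.43 ± 0.42 and CCL21 at -0.37 ± 0.42. Of the pericyte and smooth muscle list, RGS5 was at -0.69 ± 0.39 and CSPG4 at 0.42 ± 0.27 at 24 h, and TAGLN at 0.35 ± 0.32 and CNN1 at 0.19 ± 0.22 at 48 h.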

How the data were processed

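Skin RNA was measured on 30 Affymetrix bovine arrays. Total RNA was extracted with Trizol and RNeasy columns and amplified from 50 ng (3' IVT Express), per the labels' protocols. The authors deposited log2 signal, computed with MAS5 per the submitters' processing notes, with no version stated there. On the linear scale the 2% trimmed mean was 500 for each array, so levels are relative to a common total. No further normalization was applied. No arrays held identical values. Detection calls were not used here. Precision is limited by the number of arrays.

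After removal of 112 controls from 24128 probe sets, 13809 of 24016 passed a filter that asks for the array's median or more in at least 3 arrays. The platform annotation gave 1 symbol for 13292 probe sets, several for 86 and none for 10638. A gene was represented by its kept probe set with the highest mean (7016 genes). No coordinates are given, because the sources used here name no genome build. Each array is 1 animal at 1 time, per the labels.

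Group means (6 groups, 30 arrays) were estimated by lmFit of limma 3.58.1, run in R 4.3.3, followed by eBayes with trend. Tests were two-sided and adjusted by Benjamini and Hochberg over all 13809 probe sets, with a threshold of 0.05. The 11 planned comparisons share arrays, and 1 was added later, with values known. The script was tested on simulated data. All member probe sets are named. For each vessel list the genes past the threshold and the 2 with the smallest p among non-members in each comparison of phenotypes are named, and for each member the 3 genes with the highest Pearson r over 30 arrays. ACVRL1 at 48 h against 24 h was added after its values were seen. The members and the lists were chosen with earlier results of these data known.

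Animal numbers in the titles pair arrays of the same animal across times. Arrays of the same number had correlated deviations from their group means in most of 24 pairs (median r = 0.25, from -0.24 to 0.63, 16 of them over 0.1), against a median of -0.03 over 124 pairs of other animals. The alternatives were quantile normalization, median centring, no filter, an offset of 16, no trend, array weights, the groups compared alone, the animal as a random block or fixed term with and without 3 numbers moved, an epidermal term, and leaving out each array. Plots used matplotlib 3.10.9 in Python 3.11.15.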

Additional observations from a re-analysis of the deposited data

How the results depend on the processing

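Over 60 values, 5 genes in 12 comparisons, 881 of 882 recomputed values kept their side of the threshold, and 19 of the 60 changed sign under at least 1 alternative, all of them uncalled. The exception was ENG in resistant skin at 48 h against 0 h: with the animal as a fixed replicate block and 3 numbers moved, 1 member was called, ENG at 0.91 (adjusted p = 0.0310), among 108 of all probe sets (0.782%). As titled the fixed block gave 0.76 (adjusted p = 0.0851; 84 probe sets called) and the random block 0.72 (adjusted p = 0.153), and the block changed no other call. These numbers were moved because an earlier analysis of the same data had found the arrays closest to other animals. Counts of members called were 0 to 0 with any one array left out.

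Members higher at 48 h than at 24 h in every resistant animal were 5, and 3 after median centring, in which changes near 0 change sign. They were 5 to 5 with any array left out, but leaving out an array cannot lower this count, so its range does not measure stability. Members without overlap, higher at 48 h than at 0 h in resistant skin, were 1, and 3 without the 3 doubtful 0 h arrays, an alternative chosen after seeing the data that sets 5 arrays against 2, where 5.68% of probe sets had that layout. They were 1 to 3 with any one array left out, a step that can only keep or add such layouts. Members without overlap at 0 h were 3, 2 after median centring and 3 to 4 with any array left out. The lower end of both of these ranges was thus fixed in advance. No share over all probe sets is given for the ranges. With an epidermal term the differences at 48 h against 0 h in resistant skin were 0.08 for TEK, 0.41 for ANGPT2, 0.32 for PECAM1, 0.48 for CLDN5 and 0.67 for ENG. Groups of 3 to 6 arrays and the dim signal of ANGPT2 limit what can be told apart.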
